A study of Mus musculus with 7 samples.

Results

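Activity-induced genes of the EGR and NR4A families, with Arc, Npas4 and Ier2, were followed in the SCN (suprachiasmatic nucleus) of mice, the part of the hypothalamus that keeps daily time and receives light signals from the retina. These 10 genes were taken by symbol from the deposited table of gene counts, which lists 55487 genes. RNA from SCN microdissections of mice was counted at the 3′ ends of transcripts in 3 advanced glaucoma and 4 control libraries. The advanced glaucoma mice were of the DBA2J strain, whose mutation in Gpnmb leads to high eye pressure and retinal damage. The control mice were DBA/2J-Gpnmb+SjJ, the same background without that mutation, and both groups lived under a light and dark cycle. The genotype label reads WT for both groups. The age, the sex and the time of day at dissection are not given in the sources used here, nor whether tissue of several mice was pooled.

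Immediate early genes are switched on within minutes of a stimulus by factors that are already present in the cell, such as CREB and the SRF complexes, and need no new protein. In the SCN, light at night induces many of them through the axons of retinal ganglion cells. EGR proteins are zinc finger transcription factors, NR4A proteins are orphan nuclear receptors that bind DNA without a hormone, NPAS4 is a neuronal transcription factor that acts on synapse formation, and ARC is a synaptic protein that takes part in the removal of AMPA receptors from the membrane.

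Nr4a3 fell in advanced glaucoma, and none of the other members passed the test. Of the 10 genes, 9 passed the filter on low counts and were tested, and Egr2 did not. Of these 9, 1 fell and 0 rose with the p of the quasi-likelihood test in edgeR under 0.05 after Benjamini-Hochberg adjustment over 14020 genes. Over all genes tested, 0.378% fell and 0.0927% rose, so the members' count rests on the single gene Nr4a3. At an unadjusted edgeR p under 0.05, 1 of the 9 members was lower (Nr4a3) and 0 were higher. With only 9 genes tested, a count of 0 higher does not show that rises were absent. After adjustment, DESeq2 and limma-voom also called 1 lower and 0 higher. The advanced glaucoma libraries all lay below the control libraries for 1 of the 9 members, where the same held for 3.91% of all genes tested. They all lay above the control libraries for 0 of the 9 members and for 4.12% of all genes tested. The median log2 fold change was -0.28 over the 9 members and -0.01 over all genes.

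**Figure D1:**
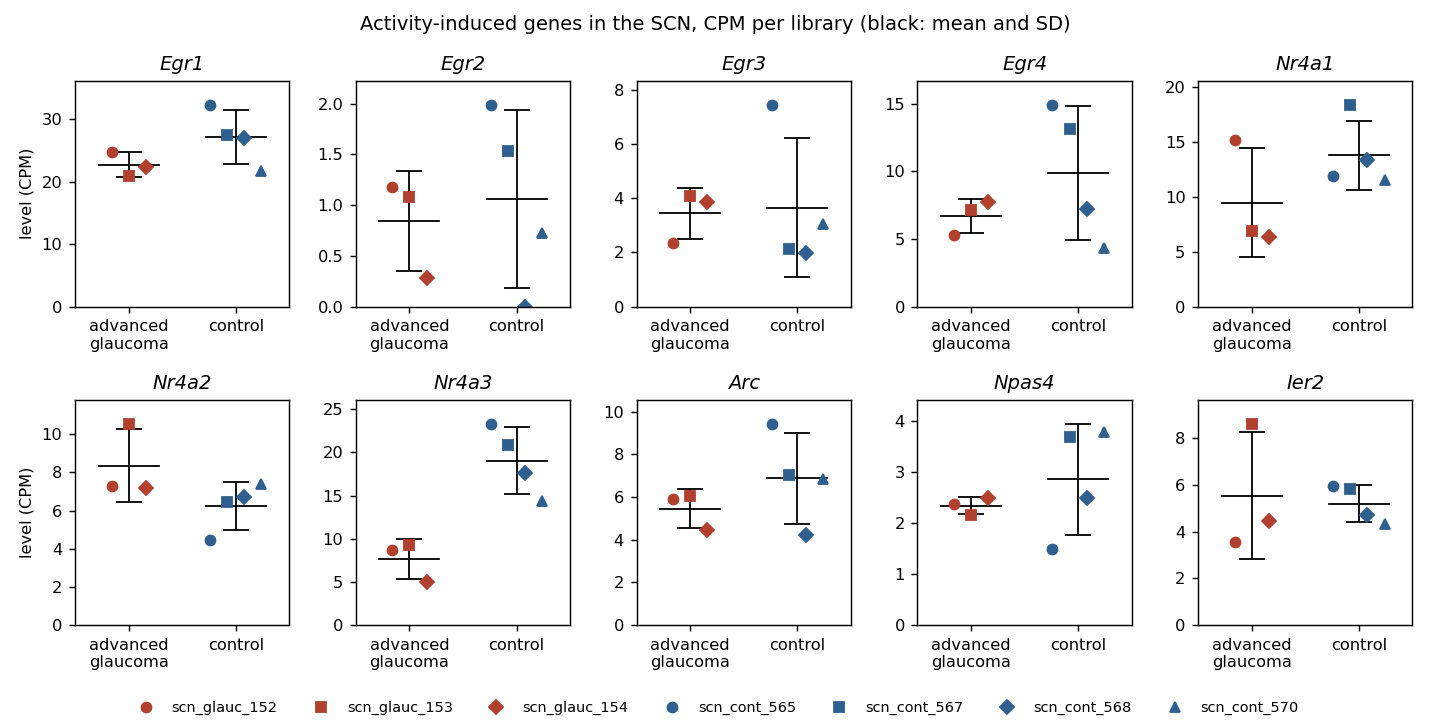
Level of each of the 10 genes (CPM, linear axes from 0) in the 3 advanced glaucoma libraries (red) and the 4 control libraries (blue), 1 point per library, with the mean and SD of each group in black. The groups are apart for Nr4a3, where the advanced glaucoma libraries reach at most 9.26 CPM and the control libraries start at 14.4 CPM, and they overlap for each of the other 9 genes.

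The libraries held 3585907 to 5118764 counts in advanced glaucoma and 2174456 to 5285093 in control. Levels are given as CPM, counts scaled to a common library size after TMM normalization, in the library order scn_glauc_152, scn_glauc_153 and scn_glauc_154 against scn_cont_565, scn_cont_567, scn_cont_568 and scn_cont_570. The 10 genes together took 232 to 389 counts per library in advanced glaucoma and 228 to 434 in control, so few counts stand behind each gene. The library scn_cont_565 was the shallowest and stood apart from the others on the first principal component, and 6 of the 10 members had their highest level in it. Of 16 fixed SCN markers, 13 were lower and 0 higher, by edgeR, among them Vip at 2.69 ± 1.38 CPM in advanced glaucoma and 112 ± 37.7 CPM in control (SD, n = 3 and n = 4). No SCN marker was at 0 in every library. Gpnmb itself had 1, 1 and 0 counts in advanced glaucoma, against 0, 1, 0 and 2 counts in control, too few to check the strain labels. Of the markers of the neighbouring hypothalamus 1 of 13 was higher, and of those of myelin 1 of 18, of astrocytes 1 of 10 and of blood vessels 1 of 10 were lower. The fold change was negative for 18 of 18 myelin genes (median log2 fold change -0.48), 7 of 10 astrocyte genes and 7 of 10 blood vessel genes. It was positive for 10 of 13 hypothalamic genes (median 1.18). At an unadjusted edgeR p under 0.05, 12 myelin, 5 astrocyte and 3 blood vessel genes were lower and 0 higher. Of the hypothalamic genes, 4 were higher and 1 lower at that p. Of 10 markers of neurons in general 1 was higher, the neurofilament gene Nefl (log2 fold change 0.63, edgeR adjusted p = 0.00884). The fold change was positive for 6 of 6 tissue stress genes and for 4 of 4 blood genes, and was negative for 8 of 10 microglial genes. In each of these 3 lists 1 gene had an unadjusted edgeR p under 0.05. All advanced glaucoma libraries lay above control for 2 stress, 4 hypothalamic and 1 general neuron gene, beside 4.12% of all genes tested. They all lay below control for 14 SCN, 3 astrocyte, 3 blood vessel, 2 myelin and 2 microglial genes, beside 3.91%. In these bulk samples, fewer cells of a type and less RNA per cell cannot be told apart.

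Of the NR4A genes, Nr4a3 encodes NOR1, Nr4a1 encodes NUR77 and Nr4a2 encodes NURR1, a receptor known for its part in dopamine neurons. Their promoters are shown because Nr4a3 passed the test while its paralogs Nr4a1 and Nr4a2 did not. In the count ratios given below, Nr4a3 did not pass against either paralog after adjustment. Against Nr4a2 the groups were apart, at the smallest p the permutation test allows, and against Nr4a1 they overlapped. Each window runs from 250 bases before to 50 bases after the RefSeq start (RefSeq, GRCm38.p6, the assembly of mm10) and is written 5′ to 3′ on the strand of the gene. Capitals mark every match, on either strand, to TGACG, the core of the cAMP response element that CREB binds, to GCGNGGGCG, the EGR site, and to TATAAA. The Nr4a3 window lies at chr4:48045055-48045354 on the plus strand, that of Nr4a1 at chr15:101266596-101266895 on the plus strand and that of Nr4a2 at chr2:57123954-57124253 on the minus strand.
Nr4a3: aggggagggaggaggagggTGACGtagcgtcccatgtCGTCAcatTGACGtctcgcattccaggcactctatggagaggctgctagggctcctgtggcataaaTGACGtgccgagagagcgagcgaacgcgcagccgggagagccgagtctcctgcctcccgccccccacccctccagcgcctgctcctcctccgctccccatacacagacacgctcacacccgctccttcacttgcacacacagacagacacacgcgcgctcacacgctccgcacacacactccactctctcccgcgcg
Nr4a1: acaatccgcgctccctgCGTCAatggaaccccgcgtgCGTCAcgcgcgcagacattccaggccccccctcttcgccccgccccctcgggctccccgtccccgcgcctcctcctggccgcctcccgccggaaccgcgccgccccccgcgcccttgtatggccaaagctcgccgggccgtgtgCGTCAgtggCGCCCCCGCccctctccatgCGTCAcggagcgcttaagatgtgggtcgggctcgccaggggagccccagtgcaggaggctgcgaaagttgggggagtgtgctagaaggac
Nr4a2: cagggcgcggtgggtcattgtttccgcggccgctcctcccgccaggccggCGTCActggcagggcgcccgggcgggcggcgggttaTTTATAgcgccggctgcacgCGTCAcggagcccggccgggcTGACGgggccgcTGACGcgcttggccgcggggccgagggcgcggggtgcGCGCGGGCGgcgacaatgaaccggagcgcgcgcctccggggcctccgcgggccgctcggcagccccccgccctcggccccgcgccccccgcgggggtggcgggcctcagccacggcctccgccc

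Each of these 3 windows held 4 copies of the TGACG core, which occurred at least once in 20.8% of all 32851 RefSeq windows of 300 bases. In Nr4a3 the copies start 231, 213, 205 and 147 bases before the RefSeq start. The GENCODE M21 annotation, which gives the gene positions used here, starts Nr4a3 at 48045153, within this window. It starts Nr4a1 at 101254269, so the Nr4a1 window lies inside that gene. The EGR site was found once in the Nr4a1 window and once in the Nr4a2 window, was not found in the Nr4a3 window, and occurred in 5.55% of all windows. TATAAA was found once in the Nr4a2 window, on the opposite strand, and in 13.6% of all windows. No match to TGACGTCA (1.79% of all windows), to AAAGGTCA, the NR4A monomer site (1.51%), or to the CArG box of SRF (1.63%) was found in these 3 windows. Every TGACGTCA would also count as a match to TGACG. Of the 10 members, 6 had a window in the table, and those of Egr4 and Npas4 held 2 copies of TGACG each. Of the 5 Egr2 windows, 3 held TGACG and 4 a CArG box. The 3 with TGACG begin at 67537619, 67537620 and 67537680 on chromosome 10 and overlap. They share the same 2 copies of TGACG and the same CArG box, so these are not separate sites. The GC content was 64.7% for Nr4a3, 72.3% for Nr4a1 and 81.7% for Nr4a2, with a median of 52.7% over all windows. These matches describe letters in the reference and were not tested against the expression values.

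Nr4a3 (ENSMUSG00000028341, chromosome 4, 48045153 to 48086447, mm10) had 8.67, 9.26 and 4.99 CPM in advanced glaucoma, against 23.3, 20.8, 17.6 and 14.4 CPM in control. The highest advanced glaucoma library lay under the lowest control library, and scn_glauc_154 was the lowest of all. These values rest on 44, 43 and 18 counts in advanced glaucoma and on 47, 68, 71 and 80 counts in control. The mean was 7.64 ± 2.32 CPM in advanced glaucoma and 19.0 ± 3.88 CPM in control (SD, n = 3 and n = 4), a 2.40-fold lower level (log2 fold change -1.26, SE 0.259, 95% interval -1.80 to -0.73; edgeR adjusted p = 0.0176). Nr4a3 had rank 41 of the 14020 genes by p. The call was lost without scn_glauc_154 (log2 fold change -1.05, edgeR adjusted p = 0.157), without scn_cont_567 (-1.21, 0.0528) and once the mean level of 18 myelin genes entered the fit (-1.04, 0.587). Over 14 alternatives its adjusted p lay between 5.91e-04 and 0.587, and 11 of them passed. Without the shallow library scn_cont_565 it held (-1.16, edgeR adjusted p = 0.0365).

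In the same libraries the SCN markers had a mean log2 level, relative to their mean in control, of -2.22 to -1.91 in advanced glaucoma and -0.26 to 0.16 in control. The myelin markers stood at -1.01 to -0.04 in advanced glaucoma and -0.24 to 0.12 in control, with scn_glauc_154 the lowest, and those of the neighbouring hypothalamus at 0.55 to 1.30 and -0.67 to 0.69. The 10 markers of neurons in general stood at -0.09 to 0.25 in advanced glaucoma and -0.03 to 0.03 in control. The summed level ran from 1362 to 4379 CPM for the 16 SCN markers, 2812 to 5587 CPM for the 18 myelin markers and 1699 to 3860 CPM for the 13 hypothalamic markers in advanced glaucoma, against 3391 to 8545, 4918 to 6305 and 1811 to 3784 CPM in control. The part of these tissue differences in the Nr4a3 value was not tested.

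Nr4a1 (chromosome 15, 101254269 to 101274795) had 15.2, 6.89 and 6.37 CPM in advanced glaucoma, against 11.9, 18.4, 13.4 and 11.5 CPM in control. The library scn_glauc_152 lay among the control libraries, while the other advanced glaucoma libraries lay below all of them. The log2 fold change was -0.51 (95% interval -1.11 to 0.09; edgeR adjusted p = 0.723), and it was -1.05 without scn_glauc_152 (edgeR adjusted p = 0.218) and -0.31 without either scn_glauc_153 or scn_glauc_154. Its SD in advanced glaucoma was 3.35 times what counting alone would give, the widest of any member in either group.

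Nr4a2 (chromosome 2, 57106830 to 57124003) had 7.29, 10.6 and 7.20 CPM in advanced glaucoma, against 4.47, 6.43, 6.69 and 7.38 CPM in control. The groups overlap at scn_cont_570, whose level lay above 2 of the 3 advanced glaucoma libraries. The log2 fold change was 0.38 (95% interval -0.25 to 1.01; edgeR adjusted p = 0.840). It was 0.18 without scn_glauc_153, which had the highest level, and 0.67 with the myelin covariate.

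The make-up of the NR4A counts, which no library scaling can change, rests on the same Nr4a3 counts as above. The shares were not tested between the groups. Nr4a3 gave 27.9%, 34.7% and 26.9% of the NR4A counts in scn_glauc_152, scn_glauc_153 and scn_glauc_154, against 58.8%, 45.6%, 46.7% and 43.2% in scn_cont_565, scn_cont_567, scn_cont_568 and scn_cont_570. The exact (Clopper-Pearson) 95% intervals, which cover counting error only, were 21.0% to 35.5% in scn_glauc_152 and 36.0% to 50.7% in scn_cont_570, the control library with the lowest share; those of scn_glauc_153 (26.4% to 43.8%) and scn_glauc_154 (16.8% to 39.1%) overlap that of scn_cont_570. Nr4a2 gave 23.4%, 39.5% and 38.8% in advanced glaucoma, against 11.3%, 14.1%, 17.8% and 22.2% in control. The closest libraries were scn_glauc_152 (exact interval 17.1% to 30.8%) and scn_cont_570 (16.4% to 28.8%), whose intervals overlap over most of their width. A lower Nr4a3 count by itself raises the share of the other NR4A genes, and the Nr4a2 level overlaps between the groups. The Nr4a1 share did not separate the groups, at 25.8% to 48.7% in advanced glaucoma and 30.0% to 40.3% in control.

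**Figure D2:**
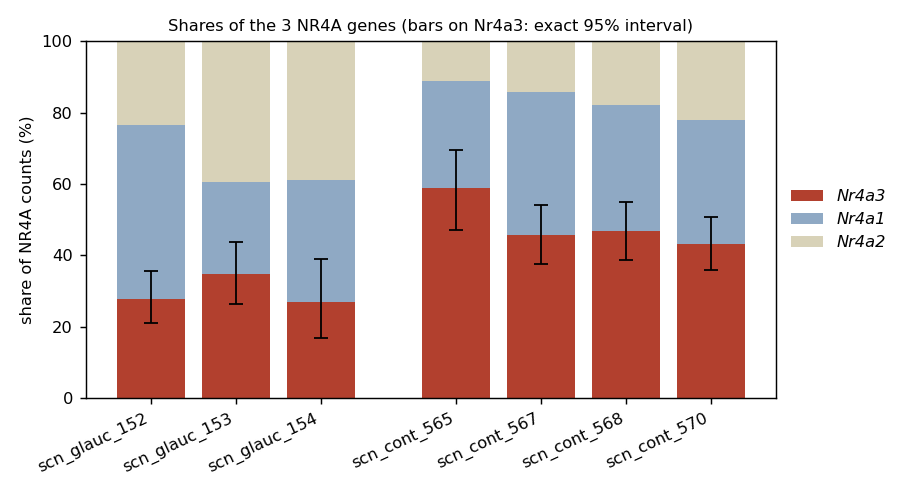
Share of the summed Nr4a1, Nr4a2 and Nr4a3 counts taken by each gene (percent, stacked bars from 0 to 100), 1 bar per library, with the 3 advanced glaucoma libraries on the left and the 4 control libraries on the right; error bars on Nr4a3 are exact 95% binomial intervals. The Nr4a3 share lies between 26.9% and 34.7% in advanced glaucoma and between 43.2% and 58.8% in control.

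Whether Nr4a3 differed from each of the 8 other tested members in its change (Egr2, under the filter, was left out) was tested on the log2 ratio of their counts (0.5 added to each) in every library, a test chosen after the values were seen. The ratio of Nr4a3 to Nr4a2 averaged -0.15 ± 0.38 in advanced glaucoma and 1.58 ± 0.57 in control (SD, n = 3 and n = 4; difference -1.73; exact permutation p = 0.0286, two-sided). That p is the smallest that the 35 splits of 7 libraries allow, and it was also reached against Egr1 (difference -1.09), Arc (-1.04) and Ier2 (-1.32). Adjusted over the 8 pairs it was 0.0571, so no pair passed. At that smallest p a pair could not pass by itself, however far apart the groups. It would have passed only if more pairs than those named here had reached the same p. The adjusted test therefore could not decide for any single pair. Against Nr4a1 the difference was -0.70 (exact permutation p = 0.171, two-sided, n = 3 and n = 4), and the groups overlap. Against Egr3, Egr4 and Npas4 the differences were -1.41, -0.92 and -1.11, with overlapping groups.

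**Figure D3:**
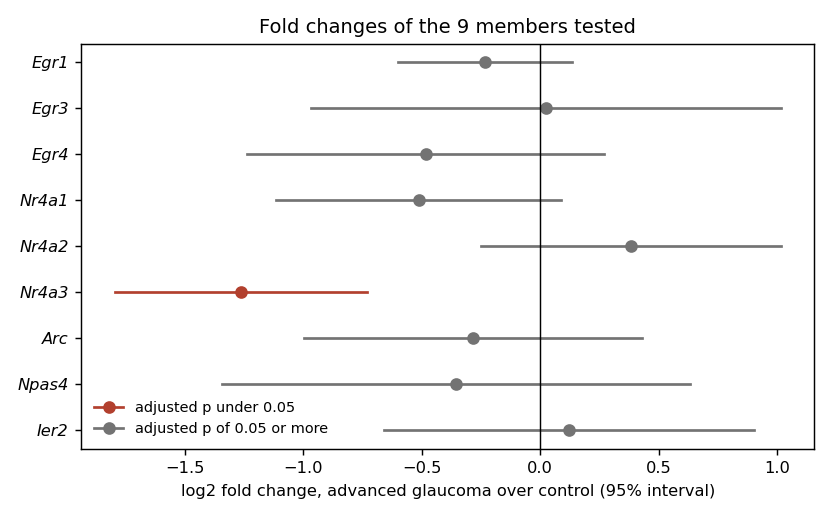
Log2 fold change of the 9 tested members, advanced glaucoma over control (x axis), with 95% intervals from the edgeR fit; the gene with an adjusted p under 0.05 is red and the others are grey. The interval of Nr4a3, -1.80 to -0.73, lies below 0 and the other 8 intervals include 0.

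The 4 EGR genes encode zinc finger factors that bind the same GC-rich site, and none of them passed or separated the groups. Egr1 (ENSMUSG00000038418, chromosome 18), a widely used marker of active neurons, had 24.8, 20.9 and 22.4 CPM in advanced glaucoma, against 32.3, 27.5, 27.0 and 21.8 CPM in control. Only the control library scn_cont_570 lay within the advanced glaucoma range. The log2 fold change was -0.23 (95% interval -0.60 to 0.14; edgeR adjusted p = 0.822; -0.15 without scn_cont_565), on 81 to 126 counts in advanced glaucoma and 65 to 121 in control.

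Egr4 (chromosome 6, 85511121 to 85513589) had 5.32, 7.11 and 7.75 CPM in advanced glaucoma, against 14.9, 13.2, 7.19 and 4.32 CPM in control. The control libraries were themselves split, with scn_cont_565 and scn_cont_567 high and scn_cont_568 and scn_cont_570 within or below the advanced glaucoma range. Their SD was 2.85 times what counting alone would give, and the log2 fold change was -0.48 (95% interval -1.24 to 0.27; edgeR adjusted p = 0.816). With 1 library left out it lay between -0.25 (without scn_cont_565) and -0.77 (without scn_cont_570), and it was -0.27 without scn_cont_567 and -0.74 with the myelin covariate.

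Egr3 (chromosome 14, 70077203 to 70082614), a factor needed for muscle spindle development, had 2.36, 4.09 and 3.88 CPM in advanced glaucoma, against 7.45, 2.14, 1.98 and 3.06 CPM in control. The library scn_cont_565 was far above the other 3 control libraries. The log2 fold change was 0.03 (95% interval -0.97 to 1.02; edgeR adjusted p = 0.998) and 0.48 without scn_cont_565, and its sign changed in 6 of 13 alternatives.

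Egr2 (chromosome 10, 67535475 to 67542188), known for its role in myelination of peripheral nerves and in hindbrain patterning, had 6, 5 and 1 counts in advanced glaucoma, against 4, 5, 0 and 4 counts in control. At this depth no difference was detectable, and with no filter the log2 fold change was -0.12 (95% interval -2.0 to 1.76). Within the EGR counts, Egr1 gave 63.0% to 73.7% in advanced glaucoma and 57.0% to 74.7% in control, and these ranges overlap.

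Arc (chromosome 15, 74669083 to 74672570) had 5.91, 6.03 and 4.43 CPM in advanced glaucoma, against 9.43, 7.04, 4.21 and 6.84 CPM in control. The lowest library of all was the control library scn_cont_568, so the groups overlap. The log2 fold change was -0.28 (95% interval -1.0 to 0.43; edgeR adjusted p = 0.915). It was -0.13 without scn_cont_565, -0.16 without scn_glauc_154, -0.47 without scn_cont_568 and -0.14 with the myelin covariate.

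Npas4 (chromosome 19, 4984355 to 4990316), which is induced by calcium entry in neurons, had 12, 10 and 9 counts in advanced glaucoma, against 3, 12, 10 and 21 counts in control. These correspond to 2.36, 2.15 and 2.49 CPM in advanced glaucoma, against 1.49, 3.67, 2.48 and 3.78 CPM in control. The advanced glaucoma libraries lay inside the control range (log2 fold change -0.35, 95% interval -1.34 to 0.63; edgeR adjusted p = 0.921).

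Ier2 (chromosome 8, 84661331 to 84662852), a nuclear protein gene of the immediate early class, had 3.55, 8.62 and 4.43 CPM in advanced glaucoma, against 5.96, 5.82, 4.71 and 4.32 CPM in control. The library scn_glauc_153 was the highest and scn_glauc_152 the lowest of all libraries. The log2 fold change was 0.12 (95% interval -0.66 to 0.90; edgeR adjusted p = 0.977) and -0.36 without scn_glauc_153.

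**Figure D4:**
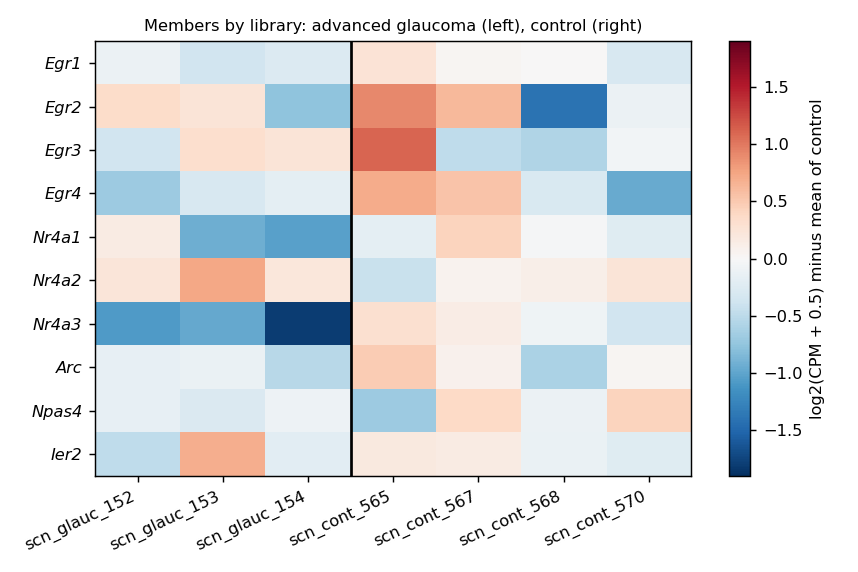
Log2(CPM + 0.5) of each of the 10 genes (rows) in each library (columns, advanced glaucoma left of the line and control right of it) minus the gene's mean over the 4 control libraries; red is above and blue below that mean. The Nr4a3 row is below the control mean in each advanced glaucoma library (-1.81 to -0.98), while scn_cont_565 stands high for Egr2, Egr3 and Egr4 (0.71 to 1.11) and low for Npas4 (-0.69).

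None of the 10 genes overlaps another gene in the GENCODE M21 annotation; where along the genome the counted reads lie was not examined. The order of the libraries differed from gene to gene. The library scn_cont_565 had the highest level of Egr1, Egr2, Egr3, Egr4, Nr4a3 and Arc and the lowest of Nr4a2 and Npas4. For Arc and Egr1 in advanced glaucoma, the SD was 0.796 and 0.867 times that of counting alone, and for Npas4 it was 0.233 times.

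Other genes of the activity-induced class were mostly not separated by the test, and those that were lay lower in advanced glaucoma. Of 62 such genes, 58 were tested, 3 fell (Vgf, Fos and Scg2) and 0 rose (edgeR, adjusted over all genes), beside 0.378% and 0.0927% of all genes tested. At an unadjusted p under 0.05, 11 were lower and 5 higher, and DESeq2 and limma-voom also called 0 higher. The median log2 fold change of these 58 genes was -0.11, beside -0.01 over all genes. The fold change was negative for 36 and positive for 22 (62.1% negative, against 51.5% of all genes). Fos, which encodes a subunit of AP-1, had 24.0, 19.6 and 21.0 CPM in advanced glaucoma, against 41.2, 39.5, 43.6 and 44.5 CPM in control. Its libraries were closely grouped on both sides, with a log2 fold change of -0.97 (SE 0.157; edgeR adjusted p = 0.00160).

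Vgf, a precursor of secreted peptides, had 178, 182 and 170 CPM in advanced glaucoma, against 268, 339, 378 and 409 CPM in control (log2 fold change -0.98, SE 0.115; edgeR adjusted p = 2.82e-05). Scg2, a secretogranin that also stands on the list of SCN markers, had 829, 758 and 818 CPM in advanced glaucoma, against 1148, 975, 1149 and 1050 CPM in control (log2 fold change -0.43; edgeR adjusted p = 0.0209). The Scg2 call was lost without scn_cont_568 (edgeR adjusted p = 0.124), scn_cont_570 (0.0602), scn_glauc_152 (0.0695), scn_glauc_153 (0.106) or scn_glauc_154 (0.151), where the log2 fold change was -0.46 to -0.39. With the myelin covariate both Scg2 (log2 fold change -0.45, edgeR adjusted p = 0.399) and Fos (-0.99, 0.115) also lost the call, with fold changes slightly larger in size than without it. These genes stood beside the same difference in SCN markers as Nr4a3, and its part in their values was not tested.

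**Figure D5:**
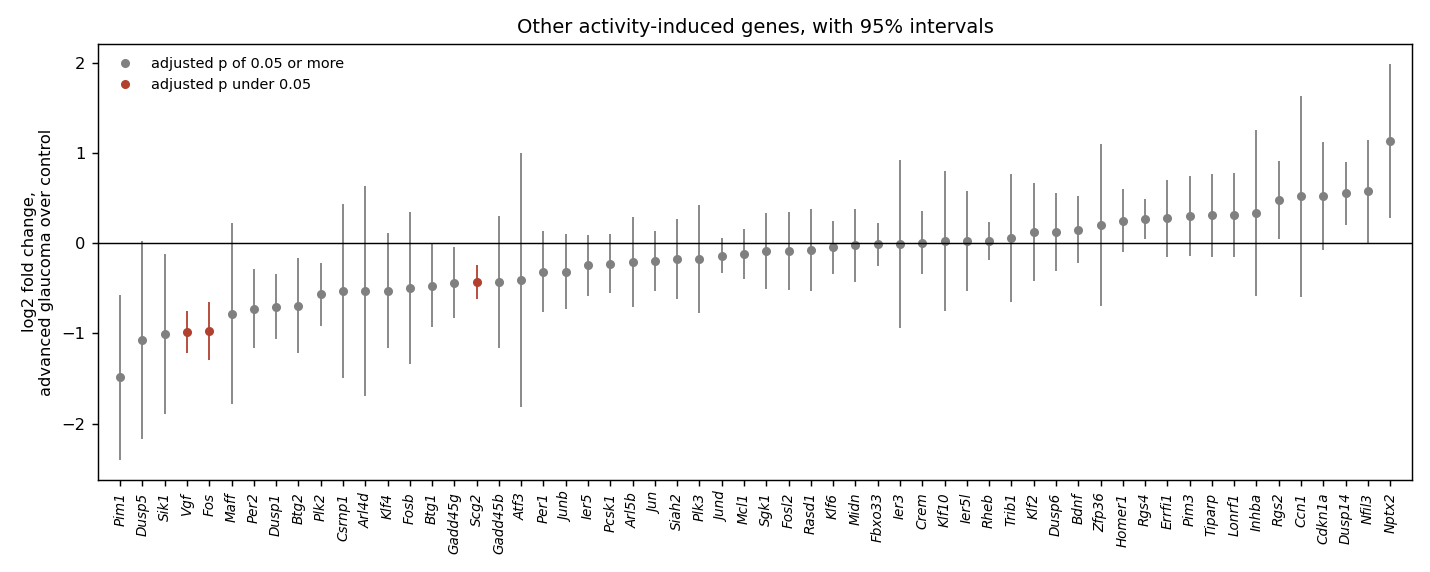
Log2 fold change, advanced glaucoma over control (y axis), of the 58 tested genes on the list of other activity-induced genes, in order of fold change, with 95% intervals from the edgeR fit; genes with an adjusted p under 0.05 are red. Vgf, Fos and Scg2 passed, and the values run from -1.49 for Pim1 to 1.13 for Nptx2.

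Genes of that list whose groups did not overlap but which missed the threshold, named after their values were seen, lay on both sides. Below control were Dusp1, a MAP kinase phosphatase gene (20.3 ± 2.67 CPM in advanced glaucoma and 33.5 ± 4.85 CPM in control; SD, n = 3 and n = 4; edgeR adjusted p = 0.0771), the kinase genes Pim1 and Plk2, and Fosb. Above control were Dusp14, Nptx2, Rgs4 and Nfil3, where Nptx2, a neuronal pentraxin, had 39.3 ± 14.9 CPM in advanced glaucoma and 17.4 ± 8.01 CPM in control (log2 fold change 1.13; edgeR adjusted p = 0.428). In all, 7 of the 58 lay below control in every advanced glaucoma library, with Vgf, Fos and Scg2 among them, and 4 lay above, beside 3.91% and 4.12% of all genes tested.

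The factors that bind the members or act beside them were not separated by the test. Of 10 binding partners and corepressors, 0 fell and 0 rose in edgeR, DESeq2 and limma-voom, with 0 lower and 1 higher at an unadjusted p under 0.05. Nab1 and Nab2, corepressors of EGR proteins, differed by -0.14 (95% interval -0.46 to 0.18) and -0.07 (-0.53 to 0.39) on the log2 scale. The smallest p was that of Rxrg, a retinoid X receptor gene of the family that pairs with NR4A1 and NR4A2, at 39.8, 34.5 and 38.8 CPM in advanced glaucoma, against 26.8, 33.4, 23.0 and 20.9 CPM in control (log2 fold change 0.55; edgeR adjusted p = 0.220). Next came Arnt2, a partner of NPAS4, with a log2 fold change of -0.15 (95% interval -0.39 to 0.08).

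Of 21 factors that induce the members, 0 passed in either direction in edgeR, DESeq2 and limma-voom, with 0 lower and 4 higher at an unadjusted p under 0.05. The median log2 fold change of these 21 factors was 0.18, with 3 negative and 18 positive, where 51.5% of all genes tested were negative. Mef2c, a calcium-responsive transcription factor gene, had 40.8, 44.4 and 62.3 CPM in advanced glaucoma, against 46.2, 32.4, 23.8 and 35.7 CPM in control (log2 fold change 0.53; edgeR adjusted p = 0.349). Map2k1, which encodes the MAP kinase kinase MEK1, had 254, 250 and 263 CPM in advanced glaucoma, against 213, 234, 219 and 199.7 CPM in control (log2 fold change 0.24; edgeR adjusted p = 0.421). For Creb1, which encodes CREB, the log2 fold change was 0.07 (95% interval -0.22 to 0.35).

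Of 13 genes for partners of ARC at the synapse, 0 passed in either direction in the 3 tools, with 0 lower and 3 higher at an unadjusted p under 0.05. Among the 13 genes the smallest p were those of the AMPA receptor subunit gene Gria1 (log2 fold change 0.31; edgeR adjusted p = 0.288) and the kinase subunit gene Camk2b (0.22; 0.513). Of 7 zinc finger relatives tested, 0 passed in the 3 tools, with 1 lower and 0 higher at an unadjusted p under 0.05, and the smallest p were those of Klf7 (log2 fold change -0.29; edgeR adjusted p = 0.526) and Klf5 (-0.24; 0.782).

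Of 13 other nuclear receptor genes, 1 fell and 0 rose in edgeR, where DESeq2 called 3 lower and 0 higher, limma-voom 1 lower and 0 higher, and 3 were lower and 0 higher at an unadjusted p under 0.05. The nuclear receptor gene that fell after adjustment in edgeR was Rora, a clock receptor that is also among the SCN markers. It had 78.2, 72.6 and 69.5 CPM in advanced glaucoma, against 169, 143, 167 and 173 CPM in control (log2 fold change -1.15, SE 0.107; edgeR adjusted p = 3.31e-07).

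The genes whose levels over the 7 libraries lay closest to those of 3 members were found by the root mean square difference of log2 CPM, each gene centred on its own mean. Closest to Nr4a3 were Drd1, the D1 dopamine receptor gene, at a difference of 0.17, Scrt2 (0.22), Scube2 (0.22), Dll3 (0.23) and Shtn1 (0.25), where the SD of Nr4a3 itself was 0.77. Drd1 had 4.93, 4.74 and 3.32 CPM in advanced glaucoma, against 14.9, 11.9, 7.93 and 8.28 CPM in control (log2 fold change -1.25; edgeR adjusted p = 0.115). Of these 5 genes Shtn1 passed, with 12.6, 17.4 and 10.8 CPM in advanced glaucoma, against 29.3, 35.2, 35.7 and 27.2 CPM in control (log2 fold change -1.21; edgeR adjusted p = 0.00166). All 5 were chosen by closeness to Nr4a3 over the same 7 libraries. Their lower levels in advanced glaucoma follow from that choice and are no separate result.

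With 1 gene of similar closeness left out because it has no symbol or a provisional one, closest to Egr1, whose own SD was 0.22, were Swt1, Nfkbia, Dxo, Dyrk3 and Add3, at differences of 0.05 to 0.07. Closest to Arc, whose SD was 0.37, were Tomm6os, Nsun5, Csgalnact2, Fat4 and Oxsr1, at 0.08 to 0.13. No member was among the 5 genes closest to another of these 3, and with 7 libraries such closeness describes these samples only.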

How the data were processed

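The authors' deposited file gives raw counts (integers) for each gene in 7 columns, 1 per library, each matched to a sample by its title. Per the labels' protocols, libraries were made by BRB-seq, in which transcripts are tagged at their 3′ end. A count therefore reads a transcript's end, and levels were not compared between genes. The family shares and count ratios combine counts of several genes, and were read for differences between libraries only. The tools were DESeq2, featureCounts, HTSeq and STAR and the build mm10, per the submitters' processing notes; versions, strand setting and handling of molecular identifiers are not given in the sources used here, so counts may be reads and not molecules. Symbols were found for 55141 of 55487 identifiers, and those without one held 0.0291% of counts. Since the design gives numbers of mice, libraries were taken as separate mice. No pair agreed within counting noise (chi-square over degrees of freedom of 4.21 or more). That check cannot tell separate mice from separate preparations of the same tissue.

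Counts were tested in R 4.3.3 with edgeR 4.0.16: filterByExpr (14020 genes kept), TMM, robust quasi-likelihood fit with group as the only term, Benjamini-Hochberg over all genes, threshold 0.05. The SE of a log2 fold change was derived from its F statistic. Alternatives used DESeq2 1.42.0, limma 3.58.1 (voom with sample weights), other scalings and filters, a myelin covariate and each library left out. The fit was tested on simulated data. The members and gene lists were chosen with earlier results of these data known. All members were named; each list gave its genes that passed (at most 6), or the 2 with the smallest p. Creb1, Nab1, Nab2 and the genes said to be so chosen were added after their values were seen.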

Additional observations from a re-analysis of the deposited data

How the results depend on the processing

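The fold changes of 7 of the 9 tested members (Egr1, Egr4, Nr4a1, Nr4a2, Nr4a3, Arc and Npas4) kept their sign in the alternatives run, and no alternative made a further member pass. Nr4a3 had a log2 fold change of -1.04 with the myelin covariate, where 0 members were lower, and -1.41 to -1.05 with a library left out, where 0 to 1 members were lower. Egr3 turned to -0.0028 with DESeq2 and ran from -0.18 to 0.48 with a library left out, and Ier2 ran from -0.36 to 0.37. Of all genes, 66 differed, with 202 when no filter was used, 16 with the myelin covariate and 28 to 93 with a library left out. Among the other activity-induced genes, 5 were lower and 2 higher with no filter, 1 was lower with the myelin covariate, and 0 to 1 were higher with a library left out. Among the other nuclear receptors, 3 were lower with no filter, 2 with a mean of at least 10 CPM, 3 with DESeq2 and 1 to 2 with a library left out. The cause of these shifts was not tested. RLE factors or plain library size changed no call among the members and the lists of related genes, and a pseudocount of 1 in the count ratios (added after the data were seen) put no pair past the threshold. Fits without a library rest on fewer samples, and in members with under 50 counts per library depth limits what can be seen. No paired analysis was possible because the groups share no replicate number.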

Other observations

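Dusp4, a MAP kinase phosphatase gene of the activity-induced class, fell short of the filter on low counts and was picked out after its values were seen. It had 0.728 ± 0.227 CPM in advanced glaucoma and 2.70 ± 0.830 CPM in control (SD, n = 3 and n = 4), on at most 14 counts in any library, and each advanced glaucoma library lay below each control library. Dusp4 was not tested in the main fit. The fit with no filter held it, and its value there is not given here.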
